A study of Mus musculus with 2 samples.

Results

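The genes described are 9 that release the precursor of prostaglandins or make, inactivate or sense them, together with Lpar3, the lysophosphatidic acid receptor that lies upstream of uterine prostaglandin synthesis. They were taken as every probe set whose only gene symbol in the platform annotation was Ptgs1, Ptgs2, Ptges, Ptges2, Ptgis, Hpgd, Pla2g4a, Ptger2, Ptger4 or Lpar3. This gave 14 probe sets for 9 of the 10 genes, out of 45037 probe sets and 18193 genes. The annotation used here pairs no probe set with Ptgs1, so Ptgs1 was not analysed here. The mice were C57BL/6, were mated with fertile males, and gave uterine stromal cells on day 4 of pregnancy. The floxed control group was labelled Msx1Msx2 Floxed Control and the other group Msx1Msx2-null, in which the floxed alleles were deleted with PRcre, a Cre expressed from the progesterone receptor gene and therefore in more uterine cell types than stroma. Each group was 1 Affymetrix array of RNA pooled over mice, 5 per genotype in the design text and 4 per genotype in the extraction protocol. The sources used here give no age for the mice.

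Prostaglandins are made from arachidonic acid, which phospholipases cut from membranes and cyclooxygenases convert to an intermediate shared by all prostaglandins. Terminal synthases turn this intermediate into prostaglandin E2 or prostacyclin, receptors on the cell surface or in the nucleus sense the product, and a dehydrogenase inactivates it. In the mouse uterus these lipids take part in blastocyst attachment and in the decidual response of the stroma, and mice that lack the phospholipase Pla2g4a or the receptor Lpar3 implant late and with crowded embryos. Lpar3 is known as a gene of the luminal epithelium around the time of attachment, and its loss lowers uterine Ptgs2.

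Promoter stretches of 4 members are shown because these genes had the largest ratios between the arrays in either direction. They are RefSeq sequences of build GRCm38.p6, each from 250 bases before to 30 bases after the annotated start, and 9 of the 10 members had an entry. Capitals mark matches, on either strand, to the homeobox core TAATTG, which reads CAATTA on the other strand, the TATA box TATAAA, which then reads TTTATA, the cAMP response element core CGTCA, which then reads TGACG, the E-box CACGTG, which reads the same on both strands, and the C/EBP motif TTGCNNAA, which then reads TTNNGCAA.

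Lpar3, chr3:146220711-146220990, plus strand: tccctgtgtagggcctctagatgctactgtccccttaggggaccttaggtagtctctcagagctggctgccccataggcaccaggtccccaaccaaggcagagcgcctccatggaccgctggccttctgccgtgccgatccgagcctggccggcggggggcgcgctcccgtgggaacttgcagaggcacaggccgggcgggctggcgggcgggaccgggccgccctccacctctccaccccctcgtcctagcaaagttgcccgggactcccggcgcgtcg

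Ptgs2, chr1:150099781-150100060, plus strand: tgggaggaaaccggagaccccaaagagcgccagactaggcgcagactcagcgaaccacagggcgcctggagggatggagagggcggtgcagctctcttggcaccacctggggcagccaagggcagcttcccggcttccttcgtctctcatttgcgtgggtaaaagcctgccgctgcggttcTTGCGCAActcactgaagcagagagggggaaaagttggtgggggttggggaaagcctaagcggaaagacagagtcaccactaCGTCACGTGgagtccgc

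Hpgd, chr8:56294302-56294581, plus strand: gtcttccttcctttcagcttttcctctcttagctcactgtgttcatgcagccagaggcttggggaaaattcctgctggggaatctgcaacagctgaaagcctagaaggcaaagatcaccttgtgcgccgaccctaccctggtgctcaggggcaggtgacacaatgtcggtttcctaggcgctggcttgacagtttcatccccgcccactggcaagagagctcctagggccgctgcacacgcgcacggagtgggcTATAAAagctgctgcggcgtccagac

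Ptger2, chr14:44987861-44988140, plus strand: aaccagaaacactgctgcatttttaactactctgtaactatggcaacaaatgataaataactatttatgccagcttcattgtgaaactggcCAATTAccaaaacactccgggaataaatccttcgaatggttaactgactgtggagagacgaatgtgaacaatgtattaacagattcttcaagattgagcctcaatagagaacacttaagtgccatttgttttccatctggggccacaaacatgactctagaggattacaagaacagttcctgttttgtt

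The Ptgs2 stretch held a C/EBP match from position -69 and, from position 14 after the start, a cAMP response element core that overlaps an E-box from position 17. Of all 32851 promoter stretches of this length in the table, 10.4% held the C/EBP motif, 19.9% the cAMP response element core and 6.79% the E-box. Among the 10 stretches of the members, Pla2g4a having more than 1 start, the homeobox core of the kind that Msx proteins bind was found in 1, that of Ptger2 from position -159, against 7.65% of all stretches. The Lpar3 stretch was 70.0% G and C, above the median of 52.5%, and held no match to these 5 motifs. Hpgd held a TATA box match from position 5, and 13.1% of all stretches held one. A match is a match of letters and was not tested as a binding site.

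The labels were checked with the targeted genes. The brightest probe set of Msx1 went from 1581 in the control array to 23.0 in the null array and that of Msx2 from 63.7 to 14.5, at least 52.6-fold and 2.12-fold lower. Where these probe sets lie relative to the deleted segments is not given in the sources used here. A signal here is a MAS5 intensity on a linear scale, and a floor at the median probe set of each array, 31.0 on the control array and 30.1 on the null array, stood in for detection calls. A ratio with a signal under its floor was computed against the floor and is given as "at least". All 9 stroma markers were above the floor in both arrays, with log2 ratios from -0.32 for Vim to 0.80 for Hoxa11, and so were all 7 measured epithelium markers. Smooth muscle markers ran from -0.15 for Des to 0.70 for Cnn1. RNA quality was read from the 3'/5' signal ratio, which degradation raises. For Gapdh the control array had 0.967 and the null array 1.28, and for Actb they had 1.80 and 2.33. Both ratios were thus higher in the null array. There was 1 array per genotype, so no error between mice and no p-value could be computed. A difference of genotype cannot be told apart from one of pool, RNA quality or hybridization. Noise was scaled by comparing, in 4690 genes, the log2 ratio of the brightest probe set with that of the next brightest. The SD of a lone probe set was 0.34 for dim, 0.27 for middle and 0.21 for bright genes, classes that divide the 11833 genes above the floor equally by mean signal and held 1192, 2002 and 1496 of these 4690 genes.

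Lpar3 and both probe sets of Ptgs2 were higher in the null array, and Pla2g4a, Ptges2, Ptgis and Ptger4 had nearly the same signal in both. Hpgd was lower on its bright probe set and not on its dim one, and the probe sets of Ptges disagreed. Each of the 9 genes passed both floors on the probe set that represents it, the brightest. Lpar3 was the 1 gene of 9 past 2-fold, where 3.39% of all 11833 genes above the floor were past 2-fold, 1.59% higher and 1.8% lower in the null array. At 1.5-fold the members were Lpar3 and Hpgd, 2 of 9, beside 13.7% of all genes. The median log2 ratio was -0.02 over the 9 members and 0.02 over all genes. Of the 9 ratios 5 were smaller than the SD of a single probe set of their signal. The share of all genes with ratios that small was not computed, so this count has no background.

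**Figure D1:**
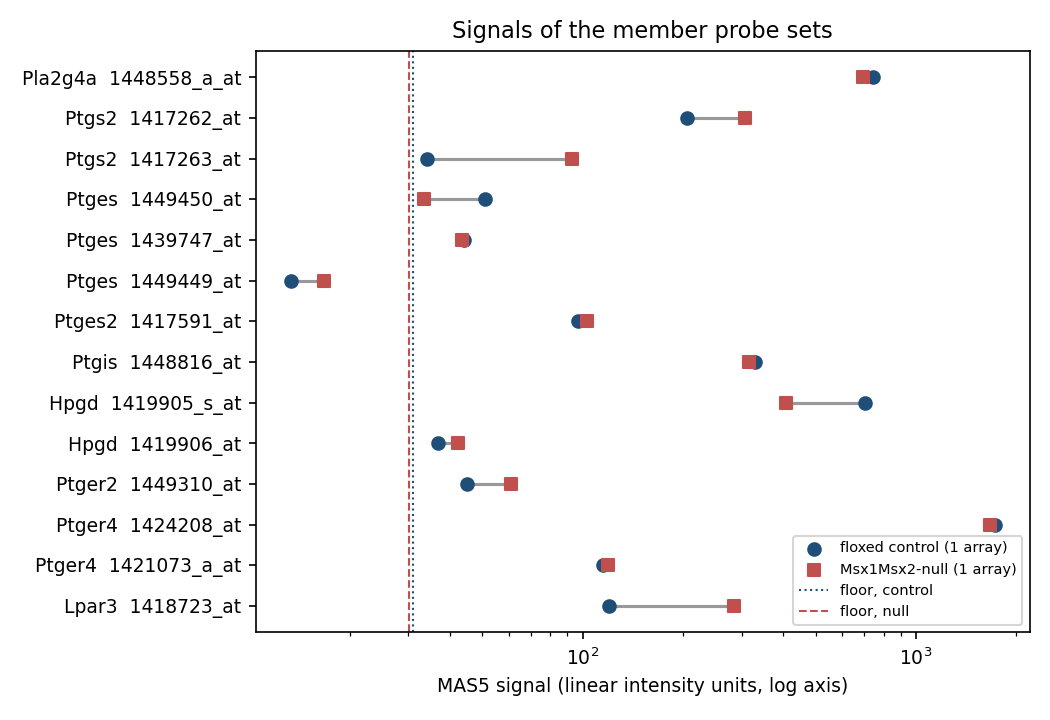
MAS5 signal (log axis) of each of the 14 member probe sets in the floxed control array (circles) and the Msx1Msx2-null array (squares), 1 array each, with the floors of 31.0 and 30.1 as vertical lines. The widest gaps are those of Lpar3 (120 and 284) and of the dimmer Ptgs2 probe set (34.1 and 93.2), and 1 probe set of Ptges lies under both floors.

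Pla2g4a, the cytosolic phospholipase A2 that releases arachidonic acid, had a signal of 744 in control cells and 691 in null cells. Its log2 ratio of -0.11 was smaller than the SD of 0.21 for probe sets of its signal. Pla2g4a and Ptgs2 lie on chromosome 1 with 0 protein-coding genes between them in the RefSeq annotation.

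Ptgs2, the inducible cyclooxygenase, was measured by 2 probe sets, and both were higher in the null array. The brighter, 1417262_at, went from 206 to 307, a log2 ratio of 0.57 (1.49-fold). The dimmer, 1417263_at, went from 34.1, just above the floor, to 93.2, a log2 ratio of 1.45 (2.73-fold). The probe sets thus gave the same direction and sizes that differed by more than the noise SD of 0.34 of dim genes. Of all genes, 92.9% had a lower ratio than the brighter probe set. With the median of its probe sets in place of the brightest, Ptgs2 had 1.01 and passed 2-fold, which made 2 members past it. The share of probe sets at least 2-fold higher was 1.31% over all with 1 gene symbol and a signal above the floor, and among the 13 such probe sets of the members it was 2 probe sets.

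Ptgs2 is also an immediate early gene, and tissue digestion can induce such genes. All 11 genes of a list of immediate early and heat shock genes had negative ratios, from -1.51 for Egr3 to -0.20 for Fos. Of all genes, 47.7% had negative ratios. Summed over the list, the control array had a signal of 40896 and the null array 29528. The part of digestion in the ratio of Ptgs2 was not tested.

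Of the terminal synthases, Ptges2 and Ptgis were close in both arrays and Ptges was not settled. Ptges, the inducible microsomal prostaglandin E synthase, was dim. Its brightest probe set, 1439747_at, had 43.9 and 43.4, a second, 1449450_at, had 51.0 and 33.5 (log2 ratio -0.61), and 1449449_at did not reach the floor of either array at 13.3 and 16.7. These probe sets of Ptges disagree, and the gene is therefore given no direction, with a log2 ratio of -0.02 on the brightest and -0.31 as the median over probe sets. Ptges2, another membrane-associated prostaglandin E synthase, had 96.7 and 103, a log2 ratio of 0.09. Ptgis, the prostacyclin synthase, had 329 and 316, a log2 ratio of -0.06. Both ratios were within the SD for their signal.

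Hpgd, the dehydrogenase that inactivates prostaglandins by oxidation, had the lowest ratio of the members. On 1419905_s_at it went from 703 to 406, a log2 ratio of -0.79 (1.73-fold lower), several times the SD of 0.21 for bright genes, of which 3.96% were at least 1.5-fold lower. Its other probe set, 1419906_at, was dim at 36.9 and 42.1 and had a log2 ratio of 0.19. The suffix of the first means that its probes can match more than 1 transcript. Without probe sets of that kind Hpgd rests on the dim probe set, whose 0.19 is within the SD of 0.34 for dim genes and gives no direction.

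**Figure D2:**
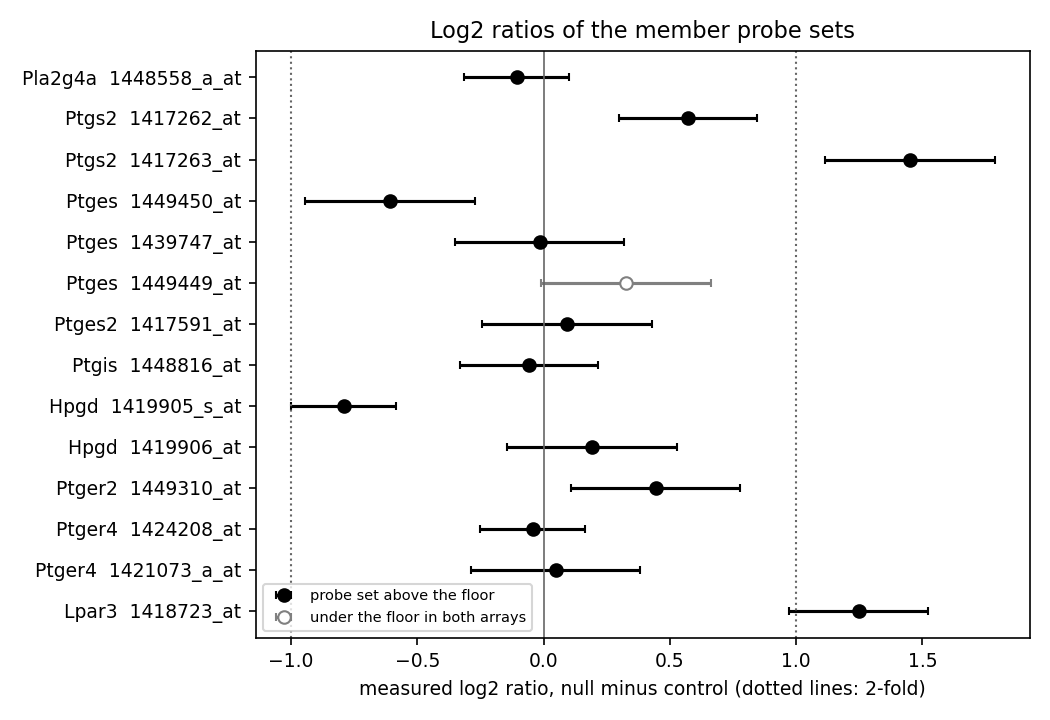
Measured log2 ratio, null minus control, of each of the 14 member probe sets, with bars of 1 SD of the noise of a single probe set in its class of signal (0.34, 0.27 or 0.21), which leave out the spread between mice, pools and hybridizations. Both Ptgs2 probe sets, Ptger2 and Lpar3 lie above 0 by more than their bar, the bright Hpgd probe set and 1449450_at of Ptges lie below 0 by more than theirs, and the open circle marks the Ptges probe set under the floor.

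The receptors of prostaglandin E2 among the members, Ptger4 and Ptger2, were within 2-fold. Ptger4, a receptor that raises cyclic AMP, had 1721 and 1671 on 1424208_at and 115 and 119 on 1421073_a_at, with log2 ratios of -0.04 and 0.05. Both probe sets of Ptger4 were closer to 0 than their SD. Ptger2, the other receptor of this kind and a known partner in the response of the uterus to prostaglandin E2, was dim. It went from 44.9 to 61.1, a log2 ratio of 0.44 against an SD of 0.34 for dim genes, and 88.6% of genes had a lower ratio.

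Lpar3 had the highest ratio of the members. Its only probe set, 1418723_at, had a signal of 120 in control cells and 284 in null cells, 2.37-fold higher, a log2 ratio of 1.25. This was larger than the SD of 0.27 for genes of middle signal, of which 1.19% were at least 2-fold higher in the null array, and 99.2% of all genes had a lower ratio. The log2 ratio was between 1.15 and 1.27 under the 3 alternatives that could move it, another scaling of the arrays or an added pseudocount. Other floors and probe set choices leave a single probe set above the floor as it is, and no second probe set was there to check it.

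**Figure D3:**
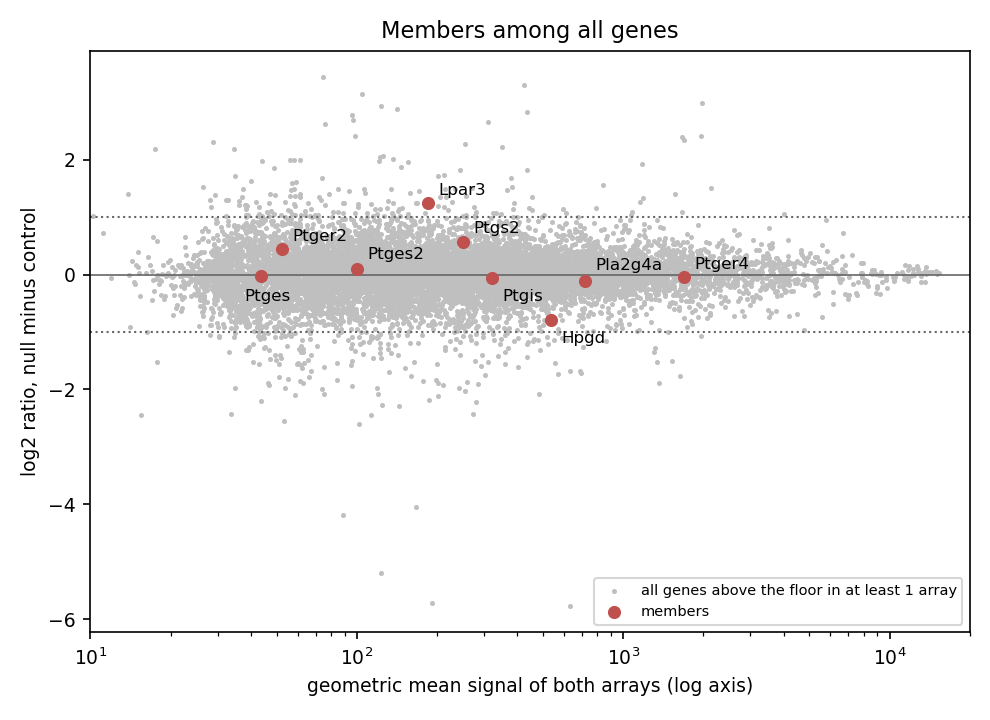
Log2 ratio, null minus control, against the geometric mean signal of both arrays (log axis) for 11833 genes above the floor in at least 1 array (grey) and the 9 members (red), with dotted lines at 2-fold. Lpar3 alone of the members lies beyond the lines, and Pla2g4a, Ptger4, Ptgis, Ptges2 and Ptges lie near 0.

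Lpar3 and Hpgd are both known from uterine epithelium, and epithelial transcripts were present in both arrays. Of the 7 epithelium markers Krt19 had a log2 ratio of 1.04 and Krt18 -1.06, the other 5 were between -0.56 and -0.02, the median was -0.10, and the summed signal of the list was 8192 on the control array and 6312 on the null array. All 5 gland markers were lower, from -2.08 for Cxcl15 to -5.77 for Spink1, with a summed signal of 7703 and 436. Of all genes, 47.7% had negative ratios, and that of Spink1 was the lowest. The marker lists were chosen with earlier results of these data known, so they are no independent measure of gland RNA. None of the 7 epithelium markers was under the floor, and of the gland markers Ttr and Prss29 were under it in the null array. In bulk RNA fewer cells of a type and less RNA per cell cannot be told apart, and the part of epithelial RNA in the ratios of Lpar3 and Hpgd was not tested.

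The other receptors of lysophosphatidic acid above the floor had smaller ratios than Lpar3, a difference that could not be tested. Lpar1 had 675 and 791, a log2 ratio of 0.23, with 0.29 and -0.00 on its other probe sets above the floor. Lpar4 had 102 and 139, a log2 ratio of 0.45, with 0.57 on its other probe set above the floor. For Lpar6 the signals were 623 and 546, a log2 ratio of -0.19. Lpar2 did not reach either floor, with 15.4 and 16.8. The lipid phosphatases that break down lysophosphatidic acid outside the cell gave -0.73 for Plpp1, 0.00 for Plpp2 and 0.03 for Plpp3, with signals of 589 and 355 for Plpp1, whose other probe set above the floor had -0.23, and that of Plpp3 0.28. Of the 8 genes of this list on the array 6 were above the floor and 0 passed 2-fold, beside 3.39% of all genes. Their median was 0.02. The annotation used here gives no probe set to Lpar5 or Enpp2 alone, so these listed genes were not analysed here.

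Among the other genes of arachidonic acid and prostaglandin metabolism, 3 were past 2-fold lower in the null array. Together with the lipoxygenase and lysophosphatidic acid genes the lists held 43 genes on the array beside the members, 31 of them above the floor, of which 20 had negative and 11 positive ratios, where 47.7% of all genes had negative ones. Of these ratios 6 were bounds and 13 were within the SD of a single probe set. The share of all genes within that SD was not computed. Past 2-fold there were 3 lower genes and 0 higher of the 31, beside 1.8% and 1.59% of all genes, and at 1.5-fold 8 lower and 1 higher, beside 6.92% and 6.79%. These counts carry no test. Their median log2 ratio was -0.19, against 0.02 for all genes, and stayed between -0.21 and -0.17 under each alternative.

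**Figure D4:**
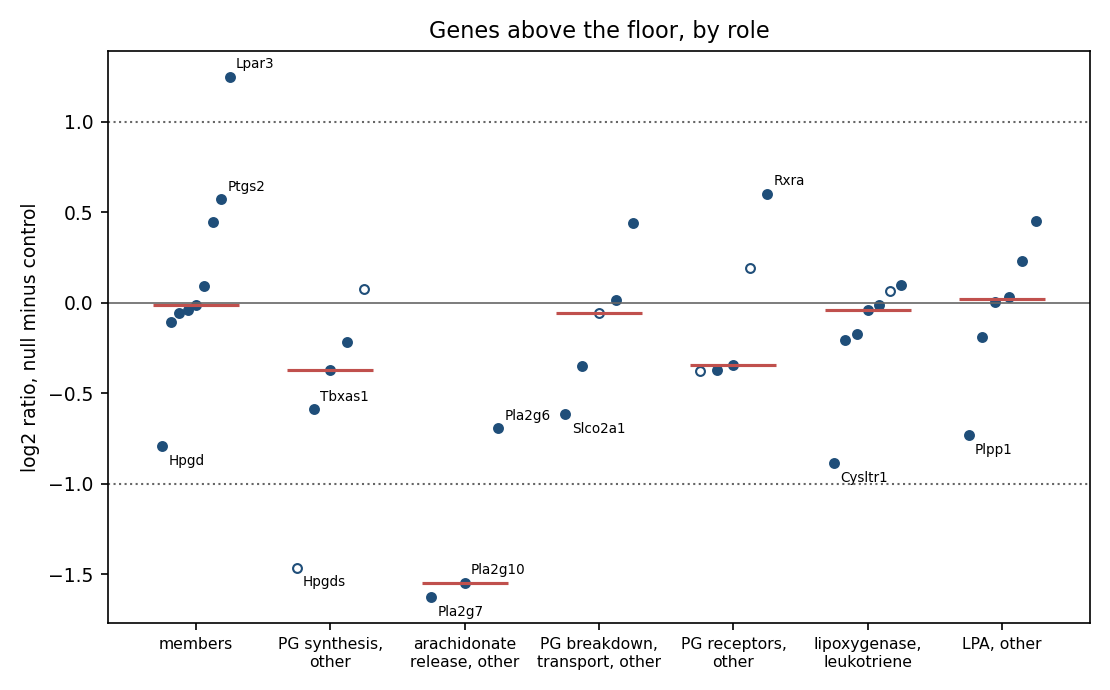
Log2 ratio, null minus control, of the members and of the other listed genes above the floor, grouped by role, each point a gene, open points bounds, red lines medians and dotted lines 2-fold (PG, prostaglandin; LPA, lysophosphatidic acid). Hpgds, Pla2g10 and Pla2g7 lie below the lower line and Lpar3 alone lies above the upper line.

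The 3 lower genes past 2-fold were a pair of phospholipase A2 family genes and a prostaglandin D synthase. Pla2g10, a secreted phospholipase A2, went from 948 to 324, 2.92-fold lower. Pla2g7, the enzyme that hydrolyses platelet-activating factor and does not release arachidonic acid as its main product, went from 267 to 86.5, 3.08-fold lower. Hpgds, the hematopoietic prostaglandin D synthase, went from 82.9 to 27.0, at least 2.76-fold lower. Pla2g6, a calcium-independent phospholipase A2, had a log2 ratio of -0.69 with signals of 188 and 116. Each of these genes rests on 1 probe set, since the other probe sets of Pla2g6 did not reach either floor.

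Markers of the cells that are known for some of these genes were lower in the same array. Of the 4 mast cell markers above the floor all had negative ratios, beside 47.7% of all genes. Past 2-fold lower were 3, Kit at 3.91-fold, Cpa3 at 2.41-fold and Cma1 at 2.04-fold, beside 1.8% of all genes. Mcpt4 had a bound of 1.34-fold lower, and the summed list signal was 764 on the control array and 256 on the null array. Tpsb2 was under the floor in both arrays. Hpgds is made by mast cells. All 5 macrophage markers had negative ratios, from -1.02 for Mrc1 to -0.21 for Cd68, with a summed signal of 3843 and 2441, and Pla2g7 is made by macrophages. The part of mast cells and macrophages in the ratios of Hpgds and Pla2g7 was not tested.

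**Figure D5:**
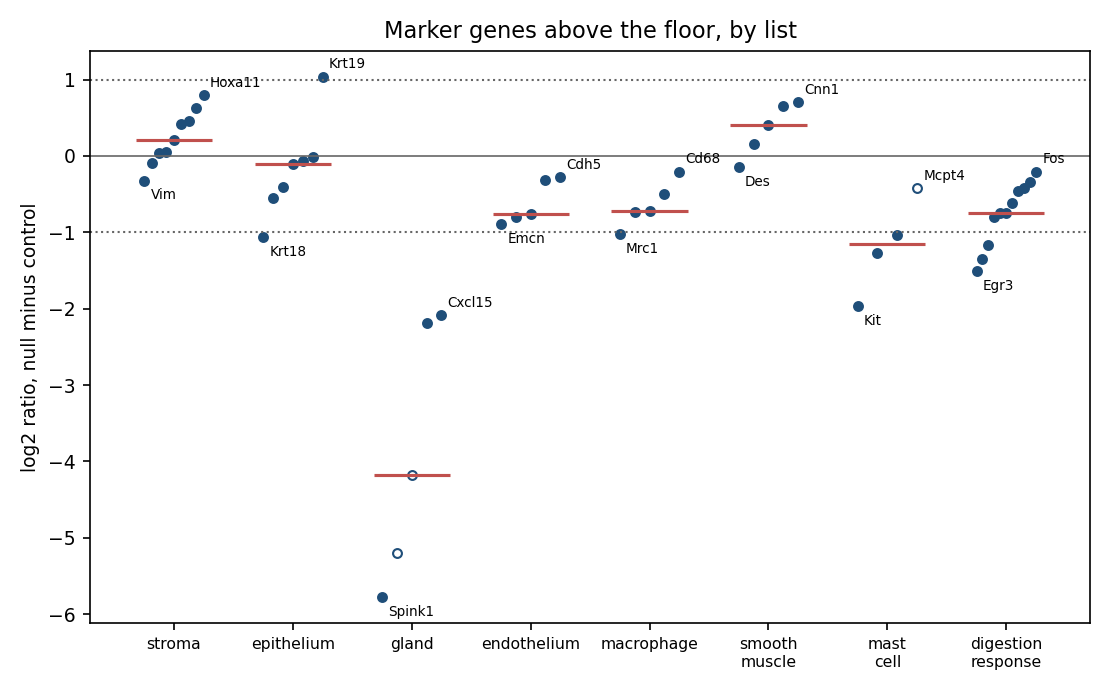
Log2 ratio, null minus control, of the marker genes above the floor in each list, each point a gene, open points bounds, red lines medians and dotted lines 2-fold, with the lowest and highest gene of each list named. All gland, endothelium, macrophage, mast cell and digestion response genes lie below 0, and the stroma and smooth muscle medians lie above 0.

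Among the remaining synthases and transporters no gene passed 2-fold, beside 3.39% of all genes. Tbxas1, the thromboxane synthase, had 59.2 and 39.4, a log2 ratio of -0.59. Cbr1 and Akr1b8, reductases of carbonyl groups, had -0.21 and -0.37, and Ptgds, the lipocalin-type prostaglandin D synthase, was under the floor in the control array at 13.3 and just above it in the null array at 32.7. Slco2a1, the carrier that takes prostaglandins up into cells, went from 155 to 101, with a log2 ratio of -0.62. Its 3 other probe sets, of which 1 was above the floor, gave measured ratios from -0.60 to -0.20. All 5 endothelium markers had negative ratios, from -0.89 for Emcn to -0.28 for Cdh5, beside 47.7% of all genes. Their summed signal was 2822 on the control array and 1867 on the null array. Slco2a1 is known from endothelium, and the part of endothelial cells in its ratio was not tested. Abcc4, an exporter, had -0.35. Ptgr1 and Ptgr2, reductases that act after Hpgd, had 0.44 and 0.02, but 2 other probe sets of Ptgr2 above the floor had -0.44 and -0.24. Akr1c18, a steroid dehydrogenase that also reduces prostaglandins, was at the floor in the control array at 31.3 and at 2.03 in the null array, so its bound of 1.04-fold lower says little.

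Most other prostaglandin receptors could not be measured. Of 11 cell surface and nuclear receptor genes, 6 had no signal above either floor, namely Ptger1, Ptgfr, Ptgdr, Ptgdr2, Tbxa2r and Pparg. Ptger3, a prostaglandin E2 receptor that lowers cyclic AMP, had 346 and 267, a log2 ratio of -0.37. Ptgir, the prostacyclin receptor, was at least 1.30-fold lower, from 39.1 to 23.4. Ppard, the nuclear receptor proposed to sense prostacyclin at implantation, was dim at 48.6 and 38.2, a log2 ratio of -0.35. Its partner Rxra had 0.60 on its brightest probe set and -0.36 on another above the floor. Ppara had a bound of 0.19 and, on another probe set, of -0.08, and its remaining probe set was under the floor in both arrays.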

How the data were processed

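The authors deposited 1 intensity per probe set and array on a linear scale. The submitters' processing notes name MAS5 and Affymetrix Expression Console 1. The 2% trimmed mean of each deposited intensity column was 150, so the arrays share a scale. MAS5 subtracts mismatch signal, which makes ratios of dim probe sets noisy. Settings of the scaling, and calls of detection, are not given in the sources used here.

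Of 45101 probe sets, 64 Affymetrix controls were left out. The annotation gave 1 symbol for 34945, several for 932 and none for 9160, and only the first were used. The Entrez IDs of all 9 members matched RefSeq (GRCm38.p6). Log2 ratios are null minus control without further scaling. A gene is its brightest probe set by mean log2 signal, used when 1 signal passes the floor, the 50th percentile of an array. Signals under the floor were raised to it. Genes were called by size, at 2-fold, without a test.

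The text names all members, every pathway gene above the floor, the targeted genes, and the extremes of each marker list (stroma, epithelium, gland, endothelium, macrophage, smooth muscle, mast cell, digestion response). Other genes named were chosen after their values were seen. The members and lists were chosen with earlier results of these data known. The calculation was tested on simulated data. Alternatives were other floors, probe set choices, scalings, a pseudocount of 16 and 1.5-fold. Python 3.11.15, pandas 2.3.3 and numpy 2.4.6 were used.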

Additional observations from a re-analysis of the deposited data

How the results depend on the processing

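Of 61 recomputed member ratios, 29 were identical to the value given above, many because the alternative could not move a gene with a single probe set or one above the floor. Of the 32 others, 28 were within the single probe set SD of 0.27 of it. The other 4 were Ptgs2 at 1.01, Ptges at -0.31 and Hpgd at -0.30 with the median over probe sets, and Hpgd at 0.19 without _x_at and _s_at probe sets. The count of 1 member past 2-fold became 2 with the median over probe sets and 2 at 1.5-fold. The count of 3 pathway genes past 2-fold became 12 with no floor, 2 with the floor at the 65th percentile and 9 at 1.5-fold. The count of 401 genes past 2-fold became 3569 with no floor, 220 with the floor at the 65th percentile, 264 with 16 added to each signal and 1623 at 1.5-fold. The higher floor left 7 of the 9 members, without Ptges and Ptger2. Centring the arrays on their medians or quantile normalization changed no member count. No paired analysis was possible because each genotype had 1 array. With 1 array of a pool per genotype the precision between mice is unknown, and signals near the floor limit Ptges, Ptger2, the dim Hpgd and Ptgs2 probe sets, Hpgds and most receptors.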

Other observations

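The lipoxygenase branch, which turns arachidonic acid into leukotrienes and hydroxy fatty acids instead of prostaglandins, had 8 listed genes on the array, of which 7 were above the floor. None of the 7 passed 2-fold, beside 3.39% of all genes, and the median log2 ratio was -0.04, against 0.02 for all genes. Alox15, a lipoxygenase of macrophages and epithelia, had a signal of 702 in control cells and 697 in null cells. Lta4h, the hydrolase that makes leukotriene B4, had 868 and 929, a log2 ratio of 0.10, and Alox5ap, the protein that presents arachidonic acid to Alox5, had 662 and 587, a log2 ratio of -0.17. Alox12 and Alox5 were dim, with -0.04 and -0.21, and Ltc4s had a bound of 0.06. The receptor gene Cysltr1 had the lowest ratio, going from 61.2 to 33.1, a log2 ratio of -0.89 (1.85-fold lower). Its other probe set did not reach either floor, with 25.0 and 15.1.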
